A study of Mus musculus with 2 samples.

Results

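The genes of the constitutive proteasome were described in RNA-seq of the whole mouse omentum, a sheet of abdominal fat that carries clusters of leukocytes and stromal cells called milky spots. Wild-type (WT) mice gave the control library and Postn-DTR mice the other, both sampled 5 days after injection of diphtheria toxin (DT), so the controls received the toxin too. Postn-DTR mice carry the DT receptor in the first coding exon of a single copy of Postn on a C57BL/6 background, and DT kills cells that use the Postn promoter, which in the omentum are mainly the Aldh1a2+ fibroblastic reticular cells (FRCs). The receptor is driven by Postn in any tissue that uses that promoter, and whether a library held 1 mouse or a pool, and the age of the mice, were not stated in the sources used here. There was 1 library per genotype, so no spread between replicates, no SD and no test is given, and every difference is one between these libraries.

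Members were the genes whose symbol begins with Psm, then a letter from a to g and a number, without the immunoproteasome genes Psmb8, Psmb9 and Psmb10, and with a mean of at least 1 FPKM (fragments scaled to the length of the transcript and to the mapped fragments of the library) over both libraries. Of 24346 genes listed, 50 had such a symbol, 47 were left without the immunoproteasome genes and 45 reached the minimum. The gene just inside it was Psme2b, with a mean FPKM of 2.15. Both genes outside it encode tissue-restricted core subunits. Psma8, the alpha subunit of the testis, was at 0.288 FPKM in the WT library and 0.334 in the Postn-DTR library, and Psmb11, the beta subunit of thymic epithelium, was at 0.0212 and 0.0923. The name constitutive subunits held for 31 of the 45 members. The others were 7 assembly chaperones, 6 genes of activators and an inhibitor, and Psmc3ip, a factor of meiotic recombination that shares the name pattern and is no part of the proteasome.

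The proteasome degrades proteins that carry ubiquitin chains. Its barrel-shaped 20S core is built from outer rings of alpha subunits, which gate the channel, and inner rings of beta subunits, which hold the proteolytic sites. The 19S regulatory particle sits on the barrel, where non-ATPase subunits bind and remove ubiquitin and a ring of ATPases unfolds the substrate. Interferon exchanges the catalytic beta subunits Psmb5, Psmb6 and Psmb7 for Psmb8, Psmb9 and Psmb10, which makes the immunoproteasome, a form abundant in leukocytes. When proteasome activity is short, the transcription factor Nfe2l1 binds antioxidant response elements as a dimer with small Maf proteins and raises the genes of all subunits together.

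Since that common control acts through promoters, the upstream sequences of the 3 members that differed most between the libraries are shown first. They are followed by those of Psmb5 and Psmb6, catalytic subunits whose windows held the antioxidant response element, and by that of Psmb9, the immunoproteasome gene with the lowest ratio of Postn-DTR to WT. Each line gives the 250 bases before the RefSeq start (GRCm38.p6, the assembly called mm10 in the submitters' notes), read 5′ to 3′ on the strand of the gene. The lines cover Psmd8 at chr7:29180674-29180923 on the minus strand, Psmd9 at chr5:123227940-123228189 on the plus strand, Psmc1 at chr12:100109952-100110201 on the plus strand, Psmb5 at chr14:54617996-54618245 on the minus strand, Psmb6 at chr11:70525107-70525356 on the plus strand and Psmb9 at chr17:34187331-34187580 on the minus strand. The RefSeq starts need not be those of the GENCODE annotation, from which gene positions were taken. The windows of Psmd9 and Psmb9 lie inside their GENCODE gene spans (123169413 to 123250131 and 34181987 to 34187764). Capitals mark 1 kind of match per gene, and 2 for Psmb9. These are the letters GGGCGG (a GC box) in Psmd8 and Psmb9, TGACNNNGC (the antioxidant response element) in Psmd9, Psmb5 and Psmb6, CCGGAAG (the ETS core) in Psmc1, where it is read on the other strand, and CCAAT in Psmb9, also on the other strand.
Psmd8: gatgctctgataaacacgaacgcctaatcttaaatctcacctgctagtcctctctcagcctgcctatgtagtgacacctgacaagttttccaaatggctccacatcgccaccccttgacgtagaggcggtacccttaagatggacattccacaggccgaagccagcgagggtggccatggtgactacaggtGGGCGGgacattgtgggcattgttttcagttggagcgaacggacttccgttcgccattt
Psmd9: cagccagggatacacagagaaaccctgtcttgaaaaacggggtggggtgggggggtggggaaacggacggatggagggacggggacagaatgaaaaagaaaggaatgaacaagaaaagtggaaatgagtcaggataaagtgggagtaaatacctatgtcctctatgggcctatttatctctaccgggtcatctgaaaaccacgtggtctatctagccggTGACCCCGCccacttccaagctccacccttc
Psmc1: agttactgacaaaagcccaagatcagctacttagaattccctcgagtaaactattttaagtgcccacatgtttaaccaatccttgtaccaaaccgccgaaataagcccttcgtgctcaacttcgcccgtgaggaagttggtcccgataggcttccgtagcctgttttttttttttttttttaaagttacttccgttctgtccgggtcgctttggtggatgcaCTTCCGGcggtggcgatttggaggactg
Psmb5: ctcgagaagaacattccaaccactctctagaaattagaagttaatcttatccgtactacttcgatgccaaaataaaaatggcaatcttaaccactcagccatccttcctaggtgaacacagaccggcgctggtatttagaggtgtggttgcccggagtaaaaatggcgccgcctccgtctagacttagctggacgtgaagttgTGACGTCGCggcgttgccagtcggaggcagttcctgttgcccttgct
Psmb6: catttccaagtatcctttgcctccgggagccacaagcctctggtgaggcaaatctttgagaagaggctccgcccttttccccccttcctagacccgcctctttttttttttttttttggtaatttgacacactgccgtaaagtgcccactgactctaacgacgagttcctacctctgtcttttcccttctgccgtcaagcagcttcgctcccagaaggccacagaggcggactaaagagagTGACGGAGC
Psmb9: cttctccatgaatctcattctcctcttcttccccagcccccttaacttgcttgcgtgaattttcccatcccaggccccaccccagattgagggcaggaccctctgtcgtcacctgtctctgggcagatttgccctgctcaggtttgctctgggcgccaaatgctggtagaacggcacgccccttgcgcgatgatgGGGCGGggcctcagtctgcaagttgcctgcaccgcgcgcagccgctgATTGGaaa

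A window of 250 bases before to 50 after the start was given for 38 of the 45 members. The ETS core CCGGAAG was found on either strand in 15 of these 38 members (39.5%), against 19.3% of 9671 protein-coding genes compared between the libraries and 8.86% of all 32851 windows. TGACNNNGC was found in 6 members (15.8%), namely Psmb5, Psmb6, Psmc6, Psmd9, Psmd12 and Psme4, against 17.2% of the genes compared and 12.4% of all windows. GGGCGG was found in 22 members (57.9%, against 67.8% and 35.7%) and CCAAT in 13 (34.2%, against 42.5% and 37.4%). Members with the ETS core and members without it had nearly the same median change between the libraries, 0.19 and 0.21 on the log2 scale defined in the next paragraph. The medians were 0.20 and 0.20 for members with and without TGACNNNGC. The motifs overlap in no fixed way, and a match is a run of letters and not a measured site.

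The question put to the libraries was what the omentum loses or gains when Postn-expressing FRCs are ablated. Change is log2(FPKM + 1) in Postn-DTR less that in WT, a scale on which genes of low FPKM differ by less than their true ratio. On FPKM as deposited, 38 of 45 members were higher in Postn-DTR and 7 lower, where 51.9% of all 13127 genes compared were higher and 48.1% lower, but when both libraries were set to equal totals without pancreatic acinar genes 10 members (22.2%) were higher and 35 lower, near the share of all genes compared that were higher on that scale (22.7%). The members' median change was 0.21, with a range of -0.57 to 0.73, against a median of 0.02 over all genes compared. At equal totals these medians were -0.13 and -0.28, so the scaling moved both, and 35 of 45 members (37 as deposited) lay above the median of all genes. The summed FPKM of the members was 3275 in WT and 3861 in Postn-DTR, or 1.18-fold, while the FPKM of all genes summed to 1.24 times as much in Postn-DTR. The members thus made up 0.604% of the WT sum and 0.575% of the Postn-DTR sum.

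The differences were small. At least 1.5-fold higher were Psmd9, Psmd8 and Psmc1, 3 members in all, where 9.86% of all genes compared were this much higher, and none of the 3 reached 1.5-fold at equal totals. On the log2(FPKM + 1) scale no member was 1.5-fold lower, where 8.84% of all genes were. None was 2-fold higher or lower, where 3.88% and 3.12% were. Psme2b came nearest to 1.5-fold lower (-0.57), and without the pseudocount its FPKM in WT was 1.81 times that in Postn-DTR. Reads behind each value were estimated at 23.4 to 9778, from depths of about 23300000 fragments in WT and 24100000 in Postn-DTR. The 95% interval of the log2 ratio from counting error alone lay above 0 for 32 members, below 0 for 4 and across 0 for 9. Its median half-width was 0.0855. No such share was computed over all genes compared, so these counts say nothing particular to the members. These intervals compare the libraries as deposited and cover neither differences between mice nor the scaling. In whole tissue, fewer cells of a type and less RNA per cell cannot be told apart.

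**Figure D1:**
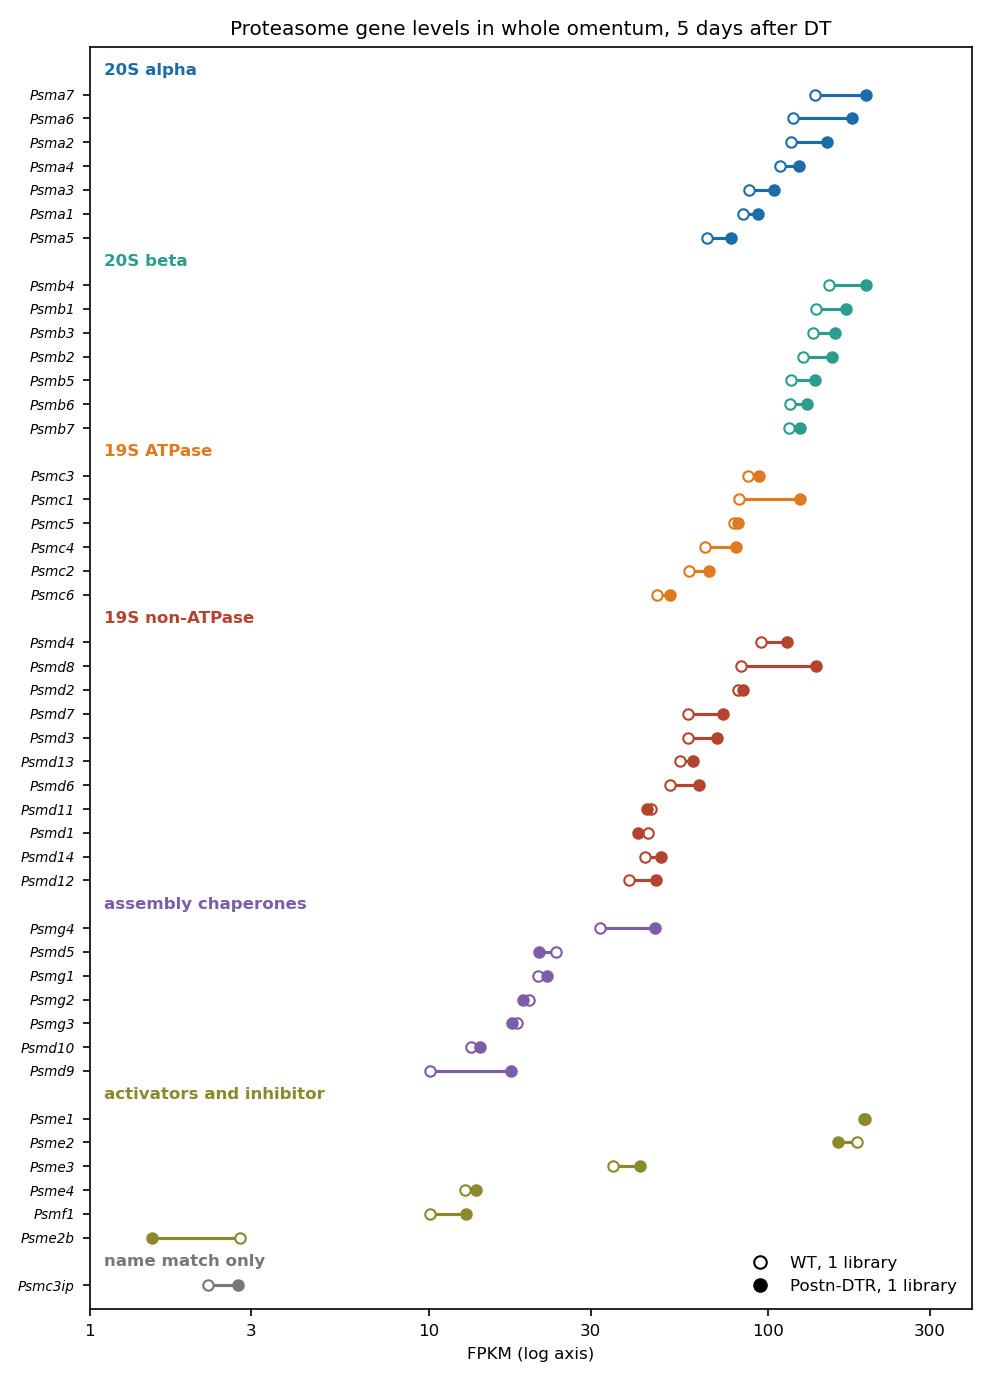
FPKM of the 45 members in the WT (open) and Postn-DTR (filled) library on a log axis, grouped by role, with 1 library per genotype and no error bars. Core subunits lie between 65.9 and 195.4 FPKM, regulatory subunits between 38.9 and 138.9 and chaperones between 10.1 and 46.5, and the filled point lies to the right in 38 members on this scale (10 at equal totals, where 22.7% of all genes compared were higher).

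Of the alpha subunits of the core, 7 of 7 were higher in Postn-DTR (median 0.25), but 3 of 7 were at equal totals (median -0.09). Psma7 was the most abundant of them, at 138.1 FPKM in WT against 195.4 in Postn-DTR, a change of 0.50. Psma6 differed most, with 118.7 and 177.3 (0.57), and Psma5 was the least abundant, with 65.9 and 77.9. Psma6 and Psma7 stood above the other alpha genes in Postn-DTR and, with changes of 0.23 and 0.16, were also above 0 at equal totals. Psma2 followed with 116.7 and 149.8, and Psma1 differed least, with 84.5 and 93.8 (0.15).

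The beta subunits of the core had the closest levels of any group. Their 7 genes lay between 115.7 and 151.9 FPKM in WT and between 124.1 and 194.1 in Postn-DTR. All were higher in Postn-DTR, by 0.10 to 0.35 with a median of 0.23, but at equal totals the median was -0.11 and 1 of 7, Psmb4 (0.01), was above 0. Psmb4, which has no catalytic site, was at 151.9 and 194.1. Of the catalytic subunits, Psmb5 (chymotrypsin-like) was at 117.3 and 138.0, Psmb6 (caspase-like) at 116.5 and 130.1, and Psmb7 (trypsin-like) at 115.7 and 124.1. Those 3 were nearly equal in WT and were the least abundant beta genes in both libraries.

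The ATPases, which form the motor ring of the 19S particle, were higher in 6 of 6 genes (median 0.16) as deposited and in 1 of 6 at equal totals (median -0.18). That gene was Psmc1 (ENSMUSG00000021178, chromosome 12, 100110154 to 100123405, plus strand), at 82.3 FPKM in WT and 124.8 in Postn-DTR. Its change was 0.59, with a counting interval of 0.53 to 0.67 on the log2 ratio, and 0.25 at equal totals. The other ATPases changed by 0.04 to 0.30. Psmc3 was the most abundant ATPase in WT, at 87.5 and 94.1, Psmc6 the least, at 47.0 and 51.6, and Psmc5 differed least, at 79.4 and 81.7.

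The non-ATPase subunits were higher in 9 of 11 genes (median 0.25) as deposited and in 2 of 11 at equal totals (median -0.09). Psmd8 (ENSMUSG00000030591, chromosome 7, 29174188 to 29180701, minus strand), a subunit of the lid, was at 83.3 FPKM in WT and 138.9 in Postn-DTR. Its change of 0.73 was the highest of the 31 subunits, with a counting interval of 0.67 to 0.81 on the log2 ratio, and it was 0.39 at equal totals. Relative to the median of the 17 regulatory subunits in the same library, a ratio that no scaling alters, Psmd8 went from 1.44 to 1.96. Psmd4, a ubiquitin receptor, was the most abundant in WT, at 95.4 and 113.7. Psmd14, the deubiquitinase of the lid, was at 43.5 and 48.6. Psmd2 and Psmd1 are the large scaffold subunits of the base, with 81.5 and 84.3 for Psmd2 and 44.4 and 41.3 for Psmd1, and they did not share a direction as deposited, while both were below 0 at equal totals. Psmd1 was the lowest of this group by change, at -0.10, and Psmd11 (45.1 and 44.0) was the other subunit below 0. Psmd12 was the least abundant in WT, at 38.9 and 46.7. Of the subunits that the symbol pattern misses, the ubiquitin receptor Adrm1 was at 69.6 and 84.6 (0.28, and -0.06 at equal totals) and the small lid subunit Shfm1 at 262.7 and 391.1 (0.57, and 0.23 at equal totals).

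The order of the subunits by FPKM was nearly the same in both libraries. Spearman's rho was 0.965 and Pearson's r of log2 FPKM 0.968 over the 31 subunits, which share their libraries and transcript lengths, so the values are a description across genes. By rank from the most abundant, Psmd8 went from 16 to 8 and Psmc1 from 17 to 11, and each of the others moved by at most 3 places. The median FPKM of the core subunits was 2.02 times that of the regulatory subunits in WT and 2.03 times in Postn-DTR.

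**Figure D2:**
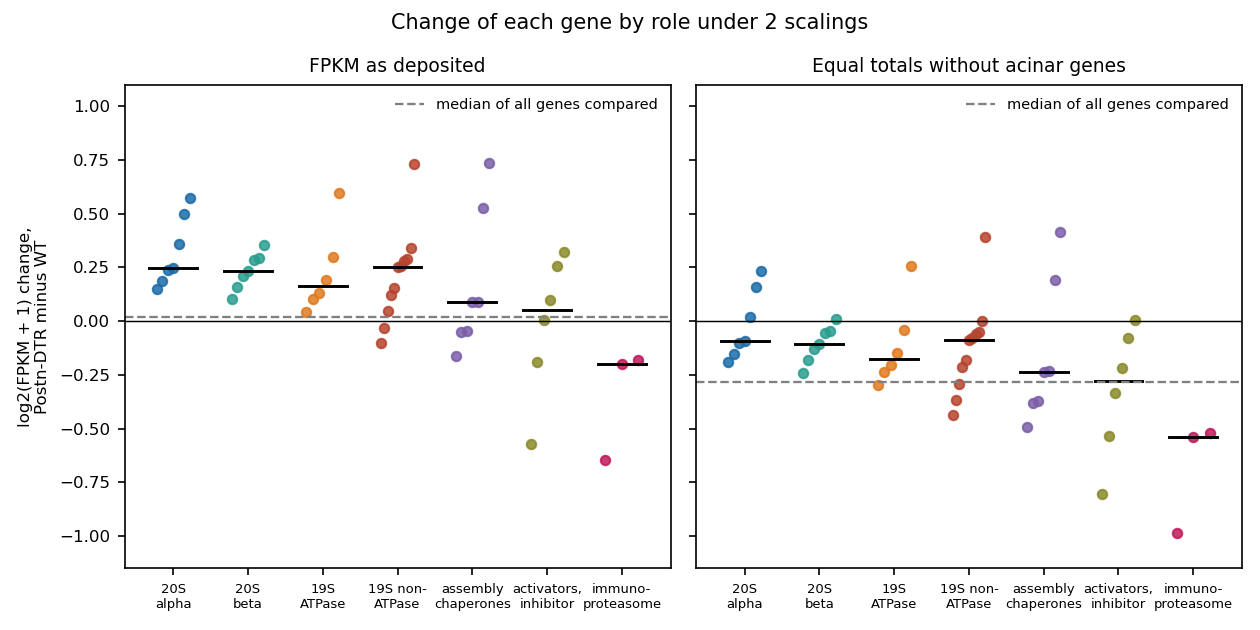
Change of each gene (points) on the log2(FPKM + 1) scale, Postn-DTR minus WT, by role, with the median of each role (bar) and of all 13127 genes compared (dashed), for FPKM as deposited (left) and for equal totals without acinar genes (right). Medians of the subunit groups lie at 0.16 to 0.25 on the left and at -0.18 to -0.09 on the right, above the dashed line in both, and the immunoproteasome genes lie below it in both.

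The assembly chaperones, which build the core and the base and then leave, were less abundant than the subunits, at 10.1 to 31.99 FPKM in WT. They were higher in 4 of 7 genes as deposited and in 2 of 7 at equal totals, with medians of 0.09 and -0.24. Psmd9 (ENSMUSG00000029440, chromosome 5, 123169413 to 123250131, plus strand), a chaperone of the ATPase ring, was at 10.1 and 17.5, a change of 0.73 (0.41 at equal totals) with a counting interval of 0.64 to 0.94 on the log2 ratio. Psmg4, a chaperone of the alpha ring, was at 31.99 and 46.5, a change of 0.53 (0.19 at equal totals). Psmd5, another chaperone of the ATPase ring, was at 23.7 and 21.1 (-0.16), so chaperones of the same ring did not share a direction. Psmg2 and Psmg3 were at 19.7 and 18.98 and at 18.3 and 17.6, with counting intervals across 0. Pomp, the chaperone of the beta ring, which the symbol pattern misses, was at 156.1 and 143.5. Relative to the median of the beta subunits in the same library, Pomp went from 1.23 to 0.930.

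The activators and the inhibitor bind the core in place of the 19S particle or block it. They were higher in 4 of 6 genes as deposited and in 1 of 6 at equal totals, with medians of 0.05 and -0.28. Psme1 and Psme2, which form the interferon-inducible activator together, were at 192.6 and 193.2 FPKM and at 183.5 and 160.6 FPKM. The ratio of Psme1 to Psme2 was 1.05 in WT and 1.20 in Postn-DTR. Psme3, the nuclear activator, was at 35.0 and 42.0, Psme4 at 12.8 and 13.7, and the inhibitor Psmf1 at 10.1 and 12.8. Psme2b had the lowest change of all members, -0.57, at 2.77 and 1.53, but it is a near-identical copy of Psme2 and overlaps 9930111J21Rik1 on the same strand, so its value is uncertain. Psmc3ip was at 2.23 and 2.75, with a counting interval across 0.

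The immunoproteasome genes, which are no members, were lower in 3 of 3 genes under both scalings, with medians of -0.20 as deposited and -0.54 at equal totals. Of all genes compared, 48.1% were lower as deposited, and at equal totals only 22.7% were higher. The medians of all genes were 0.02 and -0.28, so 3 of 3 lower at equal totals says little by itself. Psmb8 was at 138.1 and 120.0 FPKM, Psmb9 at 88.9 and 56.5 and Psmb10 at 78.2 and 68.9. Psmb9 was at least 1.5-fold lower (-0.65). Each replaces a member, so the share of the FPKM of a catalytic pair that the immunoproteasome gene takes can be read within a library, where no scaling between libraries enters. Psmb8 made up 54.1% of its pair with Psmb5 in WT (exact 95% interval 52.8 to 55.4) and 46.5% in Postn-DTR (45.3 to 47.8). Psmb9 made up 43.3% of its pair with Psmb6 in WT (41.7 to 44.8) and 30.3% in Postn-DTR (28.8 to 31.8). Psmb10 made up 40.3% of its pair with Psmb7 in WT (38.9 to 41.8) and 35.7% in Postn-DTR (34.4 to 37.1). The share was lower in Postn-DTR in each of the 3 pairs, by 7.56, 13.01 and 4.64 percentage points, and the intervals of the libraries did not overlap. The intervals are Clopper-Pearson intervals on estimated reads, with both genes of a pair scaled to a shared length, and cover counting error only. The estimates rest on a depth fit in which 55.2% (WT) and 56.1% (Postn-DTR) of low values came out whole. The gap between intervals is therefore no test of genotype. Psmb9 overlaps Tap1 on the opposite strand, Psmb5 overlaps Mir686 on its own strand, and Psmb5, Psmb6 and Psmb7 have annotated pseudogene copies, so reads may be shared.

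**Figure D3:**
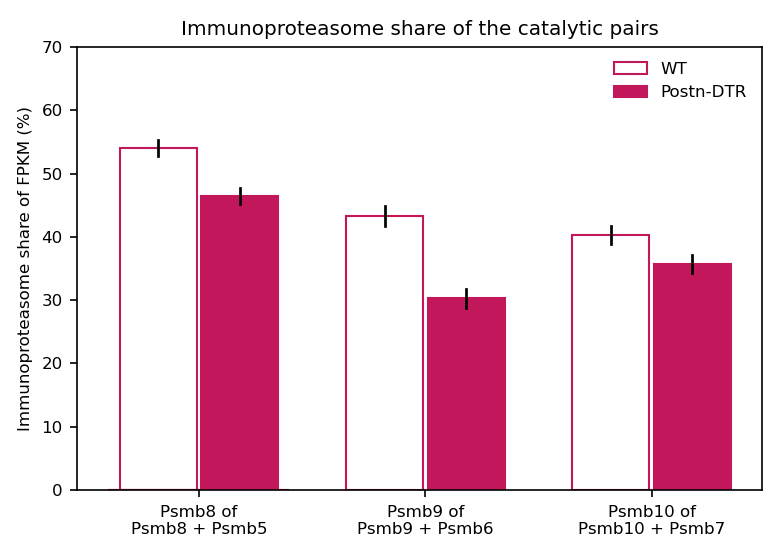
Share of the FPKM of each catalytic pair taken by the immunoproteasome gene, in percent, in the WT (open bars) and Postn-DTR (filled bars) library, with exact 95% intervals for counting error. The share is lower in Postn-DTR in the pairs of Psmb8, Psmb9 and Psmb10, by 7.56, 13.01 and 4.64 percentage points.

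Markers of leukocytes differed between the libraries beside these values. T cell markers were lower in 6 of 6 genes, and summed to 79.2 FPKM in WT against 35.0 in Postn-DTR, and B cell markers in 5 of 5, with 450.8 and 328.9. Macrophage markers were higher in 8 of 8 genes, with 2911 and 4859, neutrophil markers in 5 of 5, with 346.4 and 680.5, and plasma cell markers in 4 of 4, with 776.9 and 1418. Fibroblast markers summed to 1139 and 823.4, with 2 of 5 genes higher. Adipocyte markers were higher in 2 of 6 genes (median change -0.37), mesothelial markers in 2 of 4 (0.03) and endothelial markers in 1 of 4 (-0.17). These counts are as deposited, where 51.9% of all genes compared were higher, and were not computed at equal totals. None of these markers was at 0 in either library. Their part in the values of the members was not tested. Postn itself was at 58.3 and 16.2 FPKM. Genes of pancreatic acinar cells summed to 12631 FPKM in WT against 21.6 in Postn-DTR, with 25 of 25 compared genes at least 2-fold lower. Totals were therefore also equalised without these genes. The acinar genes were a small part of the WT sum, since all genes summed to 542190 FPKM in WT and 671882 in Postn-DTR. The shift at equal totals thus came mainly from the sums of the other genes.

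Abundant genes as a whole were higher in Postn-DTR as deposited, so the members were set beside genes of like level. Among genes with a mean FPKM of 100 to 200, the median change was 0.18 over 468 genes (69.9% higher) and 0.27 over 16 members (15 higher). At 60 to 100 the medians were 0.18 over 632 genes (69.2% higher) and 0.21 over 10 members (10 higher). At 30 to 60 they were 0.12 over 1555 genes and 0.15 over 9 members, and at 10 to 30 they were 0.04 over 4140 genes and 0.09 over 8 members. The members' median lay above that of all genes in each of these 4 ranges, by less than 0.1. The 2 members at 1 to 10 FPKM lay the other way, with a median of -0.18 against -0.08 over 5920 genes. A constant scaling factor shifts genes and members of like level nearly alike. Over all genes compared, shorter principal transcripts were also higher, with a median of 0.20 under 1000 bases and -0.03 at 3000 bases or more. For the members these medians were 0.21 (9 genes) and -0.0006 (4 genes), with 0.25 at 2000 to 3000 bases (8 genes). Spearman's rho of change with transcript length was -0.14 over all genes compared (n = 12196 genes) and 0.03 over the members (n = 45 genes).

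**Figure D4:**
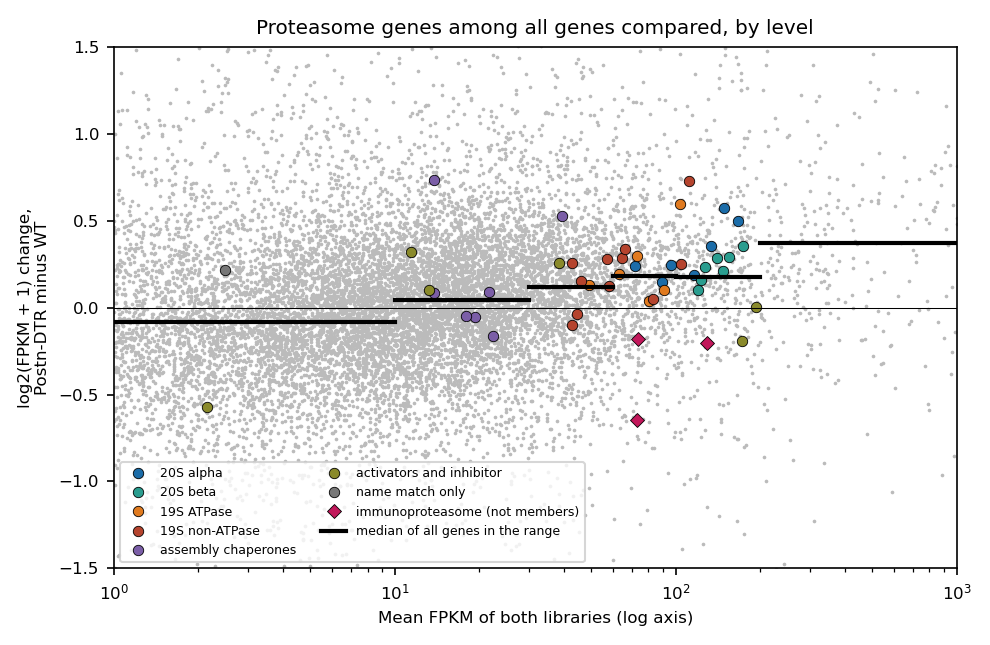
Change on the log2(FPKM + 1) scale as deposited (Postn-DTR minus WT) against mean FPKM (log axis) for all genes compared (grey), the members (coloured circles) and the immunoproteasome genes (diamonds), cropped to changes within 1.5 and mean FPKM under 1000. The black bars, the median of all genes in a range of FPKM, go from 0.04 at 10 to 30 FPKM to 0.18 at 100 to 200, and most core and regulatory subunits lie at or above them.

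Other large complexes gave the scale of such a shift. The eIF3 complex, which starts translation, was higher in 12 of 12 genes as deposited and in 8 of 12 at equal totals, with medians of 0.50 and 0.16. The CCT chaperonin, which folds actin and tubulin, was higher in 8 of 8 and 1 of 8, with medians of 0.27 and -0.07. The COP9 signalosome, a relative of the proteasome lid that acts on cullin ligases, was higher in 4 of 9 and 1 of 9, with medians of -0.02 and -0.35. Over all genes compared, 51.9% were higher as deposited and 22.7% at equal totals, with medians of 0.02 and -0.28. The medians of the subunit groups, 0.16 to 0.25 as deposited, thus lay near that of CCT, below that of eIF3 and above that of COP9. No test of these differences was possible.

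Of 28 other genes of the ubiquitin and proteasome pathway, 18 were higher as deposited and 8 at equal totals, with medians of 0.08 and -0.24. Over all genes compared, 51.9% and 22.7% were higher, with medians of 0.02 and -0.28. The 28 genes as a set thus lay near all genes, with medians above theirs by 0.06 and 0.04. Nfe2l1, the activator of subunit genes, was at 88.4 and 80.9 FPKM (-0.13), and its relative Nfe2l2 at 55.0 and 56.4. Their small Maf partners stood apart from them. Maff was at 4.97 and 16.6 (1.56), Mafg at 14.5 and 25.3 (0.76) and Mafk at 15.1 and 22.2 (0.53), and all 3 were also above 0 at equal totals. Ddi2, the protease that releases Nfe2l1 from the endoplasmic reticulum, was at 4.45 and 11.5, but Rsc1a1 overlaps it on the same strand and was at 5.59 and 11.5, so reads of the pair cannot be told apart. Ngly1, which removes the sugar chains of Nfe2l1, was at 17.8 and 18.4.

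Rps27a, in which ubiquitin is fused to a ribosomal protein, was at 828.4 and 1484 (0.84, and 0.50 at equal totals) and has annotated pseudogene copies. The polyubiquitin gene Ubb was at 651.8 and 781.6 (0.26, and -0.08 at equal totals). The activating enzyme Uba1 was at 100.3 and 84.5 and the ATPase Vcp, which pulls substrates out of complexes, at 168.6 and 142.8. The shuttle proteins that carry ubiquitinated substrates to the proteasome were lower in 3 of 4 genes as deposited, where 48.1% of all genes compared were lower. Among them Ubqln1 was at 42.0 and 30.8. Zfand5, a stimulator of the proteasome, was at 9.46 and 14.7 (0.58), and Usp14, a deubiquitinase that docks on the 19S particle, at 13.7 and 12.05.

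**Figure D5:**
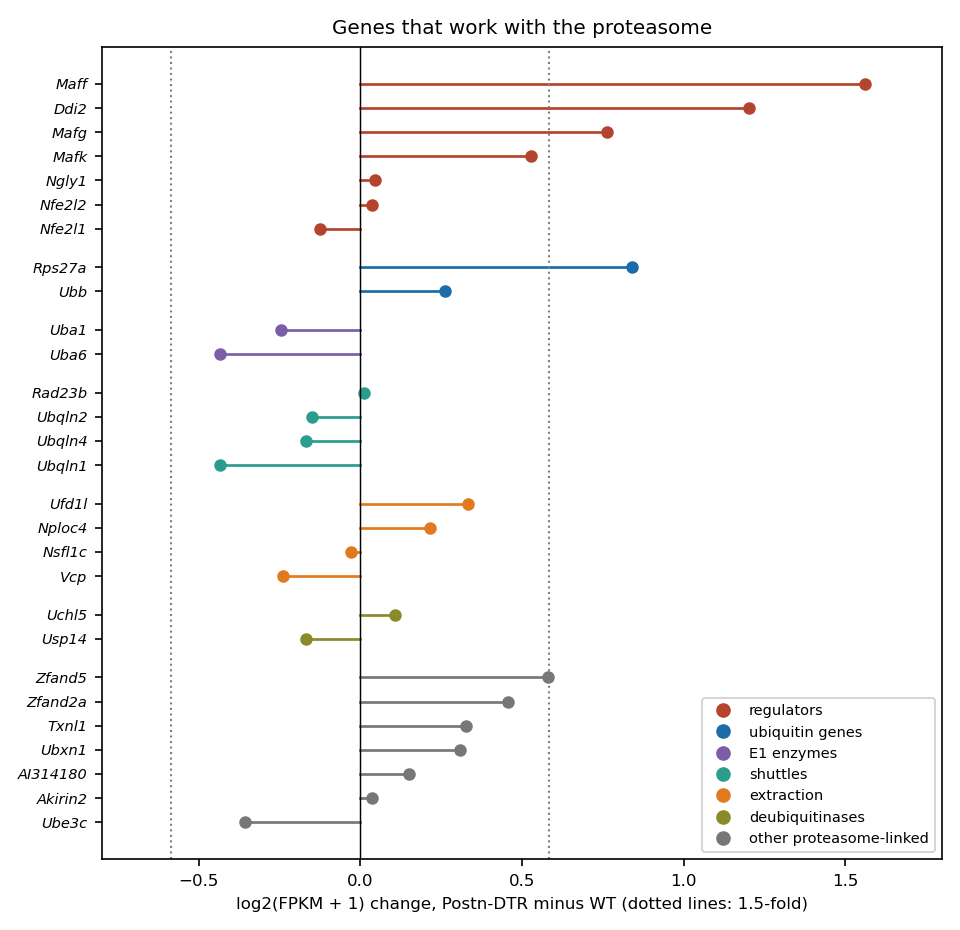
Change of 28 genes that work with the proteasome on the log2(FPKM + 1) scale as deposited, Postn-DTR minus WT, coloured by role, with dotted lines at 1.5-fold. Maff (1.56), Ddi2 (1.20), Rps27a (0.84) and Mafg (0.76) lie past the upper line and no gene lies past the lower one. At equal totals 8 of the 28 genes are above 0, where 22.7% of all genes compared were higher.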

How the data were processed

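RNA-seq of whole omentum was deposited as 1 table per library, with 1 library of WT and 1 of Postn-DTR mice. Per the labels, the miRNeasy kit served for RNA extraction and the stranded TruSeq mRNA kit, based on polyadenylated RNA, for the libraries. The authors deposited FPKM per gene symbol, a unit that corrects for transcript length and for the fragments mapped. The submitters' processing notes name TopHat2 2.1.1, Bowtie2 2.2.8, SAMtools 0.1.18, Cuffdiff 2.2.1 and mm10, without their roles. The annotation, the strand setting of the counting and the treatment of reads with several matches are not given in the sources used here.

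Groups came from the genotype label. FPKM were used as deposited, with a pseudocount of 1, a mean FPKM of at least 1 and folds of 1.5 and 2 on log2(FPKM + 1). The members and gene lists were chosen with earlier results of these data known. All members are accounted for, and some pathway genes are not reported here. Named with values were, per role, the highest, the lowest and the most and least changed genes, those at least 1.5-fold changed and preset subunits and pathway genes. Depth was estimated from the steps of low FPKM (23300000 and 24100000 fragments, with the length reduced by 202 bases), and 55.2% and 56.1% of low values came out whole within 0.02 reads, too few for a count test. No test was possible with 1 library per genotype. Gene positions and lengths came from GENCODE M21 (GRCm38) and promoters from RefSeq (GRCm38.p6). Python 3.11.15, numpy 2.4.6, pandas 2.3.3, scipy 1.17.1 and matplotlib 3.10.9 were used. The counting of changes was tested on simulated data with changes larger than those of any member. That simulation held counting error only, without differences between mice or in scaling. The alternatives were pseudocounts of 0.1 and 5, no filter, a mean FPKM of at least 10, 3 scalings and subunits only.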

Additional observations from a re-analysis of the deposited data

How the results depend on the processing

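The direction of the members rested on the scaling between the libraries. Of the 3 scalings, only equal totals reversed the median of all members. That median was 0.13 at the same 75th percentile and 0.19 with the median of all genes set to 0. At equal totals without the 27 acinar genes, which multiplied the Postn-DTR library by 0.788 relative to WT and moved the median of all genes by -0.30, the medians reversed to -0.13 for all members, -0.093 for the alpha and -0.11 for the beta subunits, -0.18 for the ATPases, -0.089 for the non-ATPase subunits, -0.24 for the chaperones and -0.28 for the activators and inhibitor. The immunoproteasome median moved to -0.54. Members higher and lower became 10 and 35, where 22.7% of all genes were higher, and members at least 1.5-fold higher and lower became 0 and 1, where 642 and 2812 of 13127 genes were. At the same 75th percentile the median of the activators and inhibitor was -0.022, and 1 member was at least 1.5-fold lower, as with the median of all genes set to 0 and with a pseudocount of 0.1. With a pseudocount of 5, 1 member was at least 1.5-fold higher. Among the 26S subunits alone 2 were lower. These follow from the construction of each alternative. Within 0.1 on the log2 scale for medians and 1.5 times for counts, 90 other values of the summaries were the same. Of the values of single genes 347 were the same and 70 moved, and 28 members crossed 0 at equal totals, 3 at the same 75th percentile and 1 with the median set to 0. No paired analysis was possible because there was 1 library per genotype. Counting error was widest for members with few estimated reads, such as Psme2b with 23.4 in Postn-DTR.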

Other observations

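Genes on either side of the proteasome in neighbouring pathways gave further values. Of 6 genes that load peptides made by the proteasome onto MHC class I, 5 were lower in Postn-DTR as deposited and 6 at equal totals, with medians of -0.15 and -0.48. Of all genes compared, 48.1% were lower as deposited and only 22.7% were higher at equal totals. Less the median of all genes, the medians of these 6 genes were -0.17 and -0.19. The peptide transporters Tap1 and Tap2 were at 53.9 and 44.1 FPKM and at 76.7 and 62.7 FPKM. B2m, the light chain of class I, was at 3177 and 3725 and was the gene whose direction differed between the scalings.

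Targets of Nfe2l2 in the oxidative stress response were higher in 7 of 7 genes compared under both scalings, with medians of 0.67 as deposited and 0.34 at equal totals. Over all genes compared, 51.9% and 22.7% were higher. Hmox1, which degrades heme, was at 57.1 and 259.1 FPKM, and Gsr, which regenerates glutathione, at 19.7 and 52.6. Txnrd1 was at 22.4 and 36.2 and Srxn1 at 14.3 and 23.5. With 1 library per genotype none of these differences has a replicate check.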
